A study of Rattus norvegicus with 18 samples.

Results

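The genes described are the kinases that phosphorylate RNA polymerase II during transcription, with their cyclins, an assembly factor and an inhibitor: Cdk7, Ccnh, Mnat1, Cdk9, Ccnt1, Ccnt2, Hexim1, Cdk12, Cdk13 and Ccnk. They were chosen by name from the 17303 rows of a table of messenger RNA levels. Rows for 9 of the 10 genes were found and Cdk7 was not analysed here. All 9 passed the filter on low values, which 10478 rows of the table passed.

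The study asked how inhibition of CDK8, a kinase of the Mediator complex, changes the transcriptional response of heart muscle cells to a hypertrophic stimulus. Ventricular cardiomyocytes from Wistar rats at postnatal day 3 were kept in culture for 48 h with AraC, which kills dividing cells, then for 24 h without serum, and then treated for 48 h, with medium and agents renewed at 24 h. The 6 groups of 3 libraries were Vehicle, phenylephrine (PE, 10 µM, an agonist of alpha1-adrenergic receptors), the CDK8 kinase inhibitor Senexin A alone at 10 µM or at 50 µM, and PE together with Senexin A at 10 µM or at 50 µM. AraC and serum withdrawal were common to all groups, Vehicle included, and the labels do not say whether the 3 libraries of a group came from separate cultures or animals. RNA was taken from whole cultures, so fewer cells of a type and less RNA per cell cannot be told apart.

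RNA polymerase II carries a long repeated tail on its largest subunit, and the kinases that phosphorylate this tail mark the steps of transcription. CDK7 with cyclin H (Ccnh) and the assembly factor MAT1 (Mnat1) forms the kinase module of the general factor TFIIH and acts at initiation. CDK9 with cyclin T1 or T2 (Ccnt1, Ccnt2) forms P-TEFb, which releases the polymerase from its pause near the start of genes, and HEXIM1 together with the 7SK RNA holds P-TEFb in an inactive complex. In heart muscle cells, P-TEFb activity is known to rise with hypertrophic stimuli. CDK12 and CDK13, both with cyclin K (Ccnk), act later, during elongation and the processing of transcripts.

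Hexim1 RNA fell most with Senexin A. Ccnt2 rose at the higher dose with and without PE, but the rise without PE was lost under several alternative settings. Both are shown by the 250 bases that precede their transcription start (RefSeq, GRCr8 build, 5′ to 3′ on the strand of the gene). Capitals mark matches on either strand to the CCAAT box, to the GC box, spelled GGGCGG, and to a run spelled TATATA. The last was added to the search after the Hexim1 sequence was seen. The Hexim1 stretch lies at chr10:88562639-88562888 on the plus strand, and the Ccnt2 stretch at chr13:41803796-41804045 on the plus strand.
Hexim1: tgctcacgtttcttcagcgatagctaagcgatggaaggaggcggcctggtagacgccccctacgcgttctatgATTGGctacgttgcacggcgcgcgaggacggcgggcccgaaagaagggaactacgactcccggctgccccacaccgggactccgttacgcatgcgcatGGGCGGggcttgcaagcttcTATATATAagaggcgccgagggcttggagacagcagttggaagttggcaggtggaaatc
Ccnt2: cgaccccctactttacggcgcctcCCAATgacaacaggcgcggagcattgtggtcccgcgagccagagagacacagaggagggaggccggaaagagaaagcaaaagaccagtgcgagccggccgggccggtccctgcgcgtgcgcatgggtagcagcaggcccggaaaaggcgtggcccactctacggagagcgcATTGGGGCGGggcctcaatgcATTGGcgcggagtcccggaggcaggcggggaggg

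Hexim1 held 2 overlapping matches to TATATA, which began 59 and 57 bases before the start. It was the only member with that match among the 7 that had a promoter in the RefSeq table; Cdk9 and Cdk13 had no entry. TATATA occurred in 5.44% of the 27457 rat promoter stretches of the same length. CCAAT occurred in 7 of 7 members and in 34.3% of all stretches, and GGGCGG in 6 of 7 members, all but Mnat1, and in 32.4% of all stretches. In Ccnt2, a CCAAT match on the opposite strand, which began 55 bases before the start, overlapped the GGGCGG match that began at 51. TATAAA was found in 0 of the 7 members and in 13.1% of all stretches. These matches describe letters in this window and were not tested for any part in the values that follow.

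Levels are FPKM, fragment numbers corrected for the length of the gene and for the size of the library. Differences are on the log2(FPKM + 1) scale with their standard error (SE), and a gene is said to have risen or fallen where limma's p, adjusted by the Benjamini-Hochberg method over the 10478 tested genes, was under 0.05. FPKM sums ran from 610324 to 910958 per library, of which 9.64% to 20.7% came from the 10 genes with the highest values. All 8 cardiomyocyte markers were detected in every library, with Tnnt2, cardiac troponin T, at 4623 to 8788 FPKM.

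Hexim1 showed the widest range of the members. Its RNA fell with Senexin A at both doses, with and without PE, and was lower at 50 µM than at 10 µM. The other members moved less: Cdk9 was lower with PE and with the inhibitor alone, and cyclin K rose at 50 µM alone. The T cyclins moved in different directions at 50 µM alone, though some alternatives lost these calls. With 50 µM added to PE, only Ccnt2 of the T cyclins passed. Cdk12 passed the test in 0 of 9 comparisons.

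In PE against Vehicle, 2 of 9 members fell and 0 rose, while 12.7% of all tested genes fell and 17.9% rose. In Senexin A at 10 µM alone against Vehicle, 2 members fell and 0 rose, beside 7.01% and 9.17% of all genes. At 50 µM alone against Vehicle, 3 members fell and 2 rose, beside 30.2% and 30.5%. For 10 µM added to PE, against PE, 2 members fell and 0 rose, beside 7.84% and 9.13%. For 50 µM added to PE, 1 member fell and 2 rose, beside 27.4% and 29.3%. In both comparisons at 50 µM, the share of members called in either direction was near or below that of all genes. Between the doses without PE, 2 members were lower and 2 higher at 50 µM, beside 24.9% and 25.4%; with PE, 1 was lower and 2 higher, beside 19.9% and 21.3%. Comparisons that use the same control libraries are not independent of each other. With quantile normalization, 47.7% of the calls of PE against Vehicle were rises, against 58.5% as reported.

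**Figure D1:**
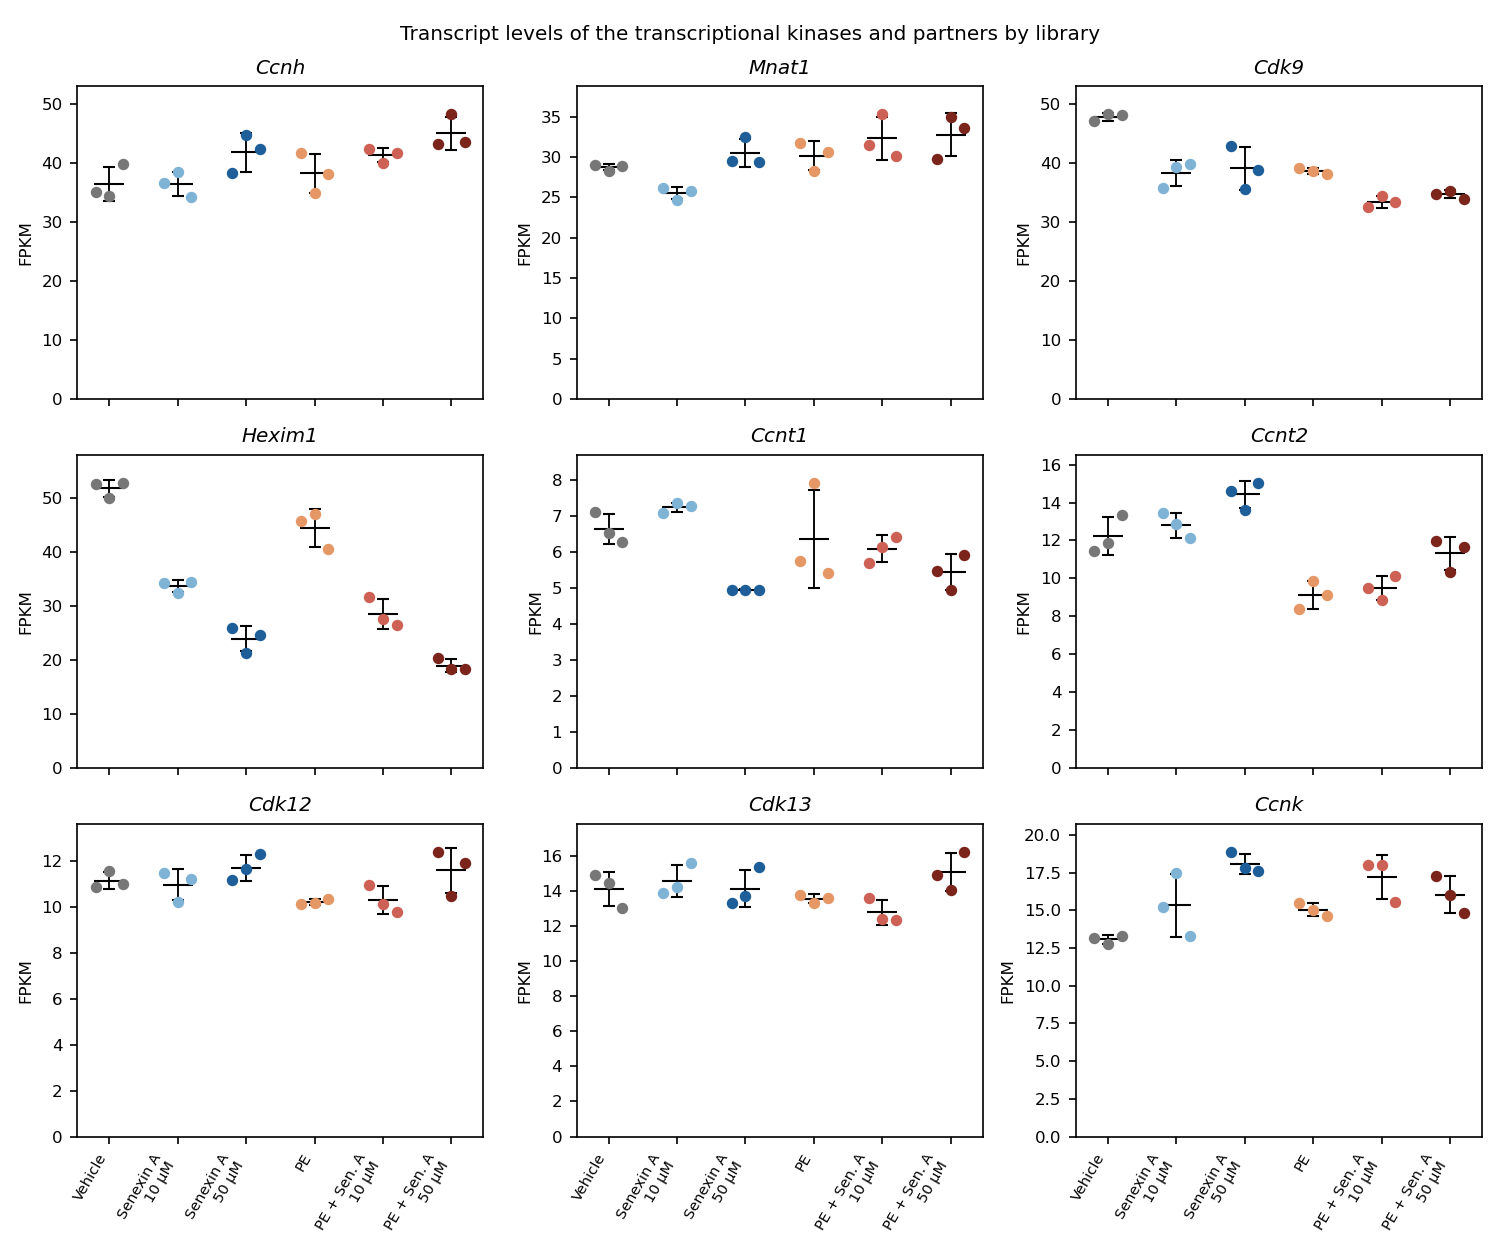
FPKM of the 9 members in each library (points) of the 6 groups, with the mean (black bar) and SD of 3 libraries (error bar), on axes that start at 0. Hexim1 steps down from a mean of 51.8 in Vehicle to 19.0 with PE and 50 µM Senexin A, while Cdk12 stays between 9.80 and 12.4 in all libraries.

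Hexim1, the inhibitor of P-TEFb (rn5 chr10:90972402-90974515), was at 52.7, 50.1 and 52.8 FPKM in the 3 Vehicle libraries. With Senexin A alone it was at 34.2, 32.3 and 34.4 FPKM at 10 µM and at 25.9, 21.4 and 24.5 FPKM at 50 µM. The 3 groups did not overlap, and each step of dose was lower than the one before. Hexim1 fell at 10 µM (-0.61, SE 0.084; limma's adjusted p = 0.000227) and larger at 50 µM (-1.09; adjusted p = 3.4e-08). As a share of the Vehicle mean, Hexim1 fell by 35.1% at 10 µM and fell by 53.9% at 50 µM. The difference between the doses passed the test itself (-0.48; adjusted p = 0.000204).

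The same order was seen under PE. Hexim1 was at 45.7, 47.1 and 40.6 FPKM with PE, at 31.6, 27.5 and 26.5 FPKM with 10 µM added, and at 20.3, 18.3 and 18.3 FPKM with 50 µM added. These groups did not overlap either. The differences from PE were -0.62 (adjusted p = 0.000232) and -1.19 (adjusted p = 2.0e-08), and that between the doses -0.56 (adjusted p = 6.3e-05). From the lowest to the highest mean, the 6 groups were ordered PE with 50 µM, 50 µM alone, PE with 10 µM, 10 µM alone, PE and Vehicle, and no neighbours in that order overlapped. The 6 calls of Hexim1 with inhibitor held under every alternative processing and with each library of the compared groups left out.

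PE alone, without inhibitor, left Hexim1 at a mean of 44.5 FPKM against 51.8 in Vehicle. Its 3 libraries were below the 3 Vehicle libraries, but the difference of -0.22 did not pass the test (limma's adjusted p = 0.0585). It passed with the replicate number as a block (adjusted p = 0.0222) and with quantile normalization (-0.36; adjusted p = 0.00350). Leaving out single libraries kept the sign and did not bring it past the threshold. Over all alternatives the adjusted p ran from 0.00350 to 0.214.

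Cdk9, the kinase of P-TEFb (rn5 chr3:17081163-17086012), was at 47.1, 48.3 and 48.2 FPKM in Vehicle and at 39.1, 38.6 and 38.1 FPKM with PE. With 10 µM alone it was at 35.7, 39.3 and 39.9 FPKM, and with 50 µM alone at 42.9, 35.6 and 38.9 FPKM. Every treated library of these groups was below every Vehicle library. Cdk9 fell with PE (-0.30, SE 0.066; adjusted p = 0.00265), with 10 µM alone (-0.31; adjusted p = 0.00434) and with 50 µM alone (-0.29; adjusted p = 0.00126). These 3 calls held under every alternative run. The doses did not differ detectably (0.03, 95% interval -0.11 to 0.17).

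Under PE, Cdk9 was at 32.5, 34.4 and 33.3 FPKM with 10 µM added and at 34.8, 35.3 and 34.0 FPKM with 50 µM added. Both groups lay below the PE libraries. The difference from PE passed the test at 10 µM (-0.20; adjusted p = 0.0424) and not at 50 µM (-0.15; adjusted p = 0.0596), and the doses did not differ detectably (0.05, 95% interval -0.09 to 0.19). The call at 10 µM was lost with each of the 6 compared libraries left out (adjusted p 0.0640 to 0.132) and when only the 2 groups were fitted. The value at 50 µM passed with quantile normalization (adjusted p = 0.0218), with median-ratio scaling (adjusted p = 0.0307) and with no filter on low values (adjusted p = 0.0469).

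The 2 cyclins of P-TEFb moved in different directions at 50 µM alone. Ccnt1 (rn5 chrX:114723349-114749903) was at 7.12, 6.54 and 6.30 FPKM in Vehicle, at 7.10, 7.36 and 7.29 FPKM with 10 µM alone and at 4.96, 4.96 and 4.94 FPKM with 50 µM alone. The 50 µM libraries were the lowest and lay within 0.1 FPKM of each other. Ccnt1 fell at 50 µM against Vehicle (-0.36, SE 0.11; limma's adjusted p = 0.00863) and against 10 µM (-0.47; adjusted p = 0.00184). With quantile normalization the first value was -0.15 (adjusted p = 0.246), whereas the second held in every alternative.

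With PE, Ccnt1 ran from 5.43 to 7.92 FPKM, the widest spread of its 6 groups. It was at 5.69 to 6.43 FPKM with 10 µM added and at 4.95 to 5.93 FPKM with 50 µM added, so these groups overlapped PE. The difference from PE at 50 µM was -0.18 (95% interval -0.41 to 0.05) and did not pass the test. The rn5 table places Ccnt1 on chromosome X, whereas RefSeq's GRCr8 places it on chromosome 7; 40 of the 493 table rows on X that could be matched lie on 7 there.

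Ccnt2 (rn5 chr13:49560747-49600517) was at 11.4, 11.9 and 13.4 FPKM in Vehicle and at 8.36, 9.86 and 9.10 FPKM with PE. The PE libraries were all below Vehicle, a difference (-0.39, SE 0.086; adjusted p = 0.00298) that held in every alternative. With 50 µM alone Ccnt2 was at 14.6, 13.6 and 15.0 FPKM, above Vehicle (0.22; adjusted p = 0.0321). That rise was lost without Vehicle replicate 1 or 2, without replicate 1 or 3 of 50 µM (adjusted p 0.0714 to 0.119), with median-ratio scaling (0.0531) and with only the 2 groups fitted (0.0749). With 10 µM alone Ccnt2 was at 12.1 to 13.4 FPKM, which overlapped Vehicle.

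Added to PE, 50 µM raised Ccnt2 to 12.0, 10.3 and 11.6 FPKM, above all 3 PE libraries (0.29; adjusted p = 0.00941), and this call held in every alternative. With 10 µM added it was at 8.86 to 10.1 FPKM, which overlapped PE (0.06, 95% interval -0.13 to 0.24). The difference between the doses under PE was 0.23 (adjusted p = 0.0396). It was lost without PE with 10 µM replicate 1 or 2, without PE with 50 µM replicate 1 or 3 (adjusted p 0.0787 to 0.137), with median-ratio scaling and with only the 2 groups fitted.

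The balance of inhibitor and kinase RNA followed Hexim1. The ratio of Hexim1 to Cdk9 FPKM was 1.08 ± 0.0417 in Vehicle (SD, n = 3) and 1.15 ± 0.0790 with PE. It was 0.881 ± 0.0690 and 0.611 ± 0.0171 with 10 and 50 µM alone, and 0.856 ± 0.102 and 0.547 ± 0.0336 with 10 and 50 µM added to PE. At 50 µM the ratio lay below that of every library at 10 µM, in which it was 0.795 or more, and both doses lay below every library without inhibitor. The ratio of Ccnt2 to Ccnt1 was 1.85 ± 0.259 in Vehicle and 2.91 ± 0.150 with 50 µM alone, and 1.46 ± 0.216 with PE and 2.08 ± 0.115 with PE and 50 µM. These ratios were not tested.

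**Figure D2:**
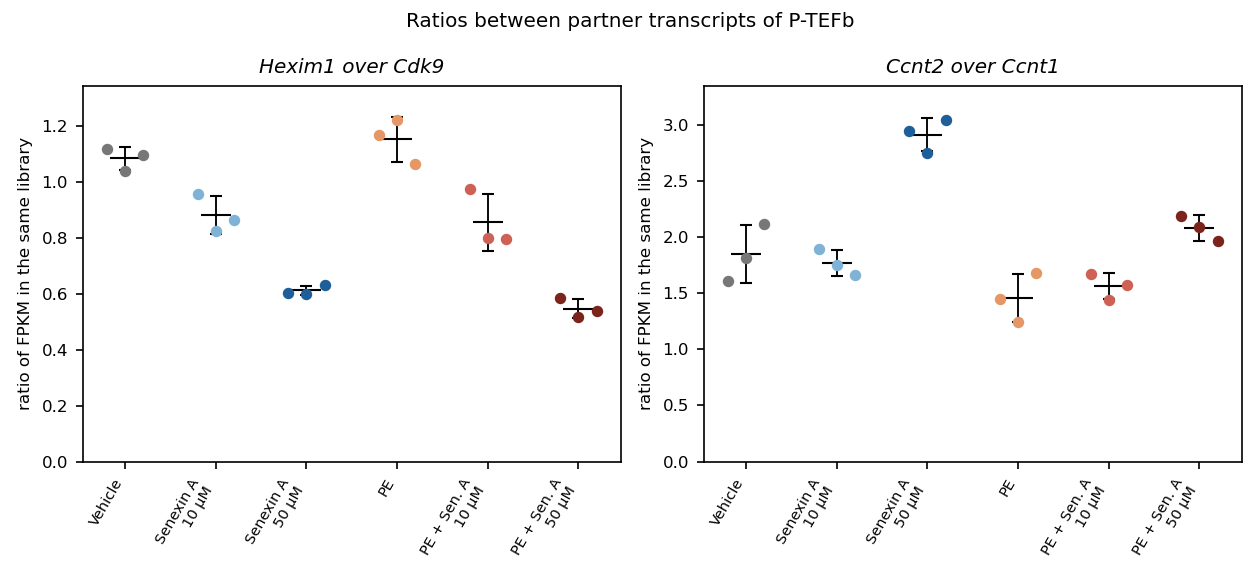
Ratio of Hexim1 to Cdk9 FPKM and of Ccnt2 to Ccnt1 FPKM in each library (points) of the 6 groups, with the mean (black bar) and SD of 3 libraries (error bar). The first ratio is 1.04 or more in all Vehicle and PE libraries and 0.631 or less in all libraries with 50 µM Senexin A; the second is highest with 50 µM alone.

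Of the kinase module of TFIIH, the cyclin and the assembly factor were measured. Ccnh (rn5 chr2:13446658-13467469) was at 35.1, 34.4 and 39.8 FPKM in Vehicle, at 41.6, 34.8 and 38.2 FPKM with PE and at 43.2, 48.2 and 43.6 FPKM with PE and 50 µM. The last group was above the other two, and Ccnh rose against PE (0.23, SE 0.082; limma's adjusted p = 0.0231). The call was lost without PE replicate 2 (adjusted p = 0.118) or 3 (0.0506), without the 50 µM library of replicate 2 with PE (0.0995), with quantile normalization (0.0780) and with only the 2 groups fitted (0.0531). With 50 µM alone Ccnh was at 38.3, 44.7 and 42.3 FPKM, which overlapped Vehicle, and its difference of 0.19 did not pass (adjusted p = 0.0508), though it did with the replicate block (0.0487), with a filter at 5 FPKM (0.0474), without Vehicle replicate 3 (0.0209) and without replicate 1 of 50 µM (0.0204). At 10 µM it ran from 34.3 to 38.5 FPKM alone and from 39.9 to 42.3 FPKM with PE, and neither difference passed the test.

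Mnat1 (rn5 chr6:105442512-105587335) was at 26.2, 24.6 and 25.7 FPKM with 10 µM alone and at 29.5, 32.5 and 29.4 FPKM with 50 µM alone. The groups did not overlap, and Mnat1 was higher at 50 µM (0.25, SE 0.075; adjusted p = 0.0123). Vehicle lay between them, at 29.0, 28.3 and 28.9 FPKM, and neither dose differed from it by the test. Without replicate 2 of 50 µM alone the adjusted p between the doses was 0.0593. In the 3 groups with PE, Mnat1 ran from 28.2 to 35.3 FPKM, and 0 of the comparisons among them passed the test.

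Of the elongation kinases, Cdk12 (rn5 chr10:85954654-86008029) was at 10.9, 11.6 and 11.0 FPKM in Vehicle and at 10.1, 10.2 and 10.3 FPKM with PE. With 50 µM added to PE it was at 12.4, 10.5 and 11.9 FPKM, above the PE libraries, but the difference of 0.16 (95% interval 0.00 to 0.33) did not pass the test (limma's adjusted p = 0.0782). It passed with quantile normalization (adjusted p = 0.0216) and without PE with 50 µM replicate 2 (0.0249). Cdk12 ran from 10.2 to 12.3 FPKM with inhibitor alone.

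Cdk13 (rn5 chr17:47889842-47979627) passed in 1 comparison. It was at 13.6, 12.4 and 12.3 FPKM with PE and 10 µM and at 14.9, 14.1 and 16.2 FPKM with PE and 50 µM, and so was higher at the higher dose (0.22, SE 0.079; adjusted p = 0.0353). PE, at 13.8, 13.3 and 13.6 FPKM, overlapped the first of these groups. The call was lost without replicate 2 or 3 of the first group or 1 or 3 of the second (adjusted p 0.0677 to 0.138), with median-ratio scaling (0.0548) and with only the 2 groups fitted (0.0970). In the 9 libraries without PE, Cdk13 ran from 13.0 to 15.6 FPKM.

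Ccnk (rn5 chr6:141261012-141283938), the cyclin of both kinases, was at 13.2, 12.8 and 13.3 FPKM in Vehicle and at 18.9, 17.8 and 17.6 FPKM with 50 µM alone. It rose by 0.44 log2 (SE 0.089; adjusted p = 0.000481), with no overlap, in every alternative. The 10 µM libraries were spread between these groups, at 15.2, 17.5 and 13.3 FPKM. Their difference from Vehicle of 0.21 (95% interval 0.02 to 0.40) did not pass the test (limma's adjusted p = 0.129). It passed without replicate 3 of 10 µM (adjusted p = 0.0365). The rise from 10 to 50 µM (0.23; adjusted p = 0.0400) was lost with 5 of the 6 compared libraries left out in turn, all but replicate 2 of 10 µM (adjusted p 0.0579 to 0.213), with median-ratio scaling (0.0727), without a filter (0.0504) and with only the 2 groups fitted (0.127).

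With PE, Ccnk was at 15.5, 15.0 and 14.7 FPKM, above the 3 Vehicle libraries, though the difference of 0.19 did not pass (95% interval 0.00 to 0.38). With PE and 10 µM it was at 18.03, 18.03 and 15.53 FPKM and with PE and 50 µM at 17.3, 16.0 and 14.8 FPKM. The latter overlapped PE (0.08, 95% interval -0.10 to 0.27). Cyclin K thus passed at 50 µM against Vehicle and not against PE; the difference between these responses is an interaction, which did not pass.

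**Figure D3:**
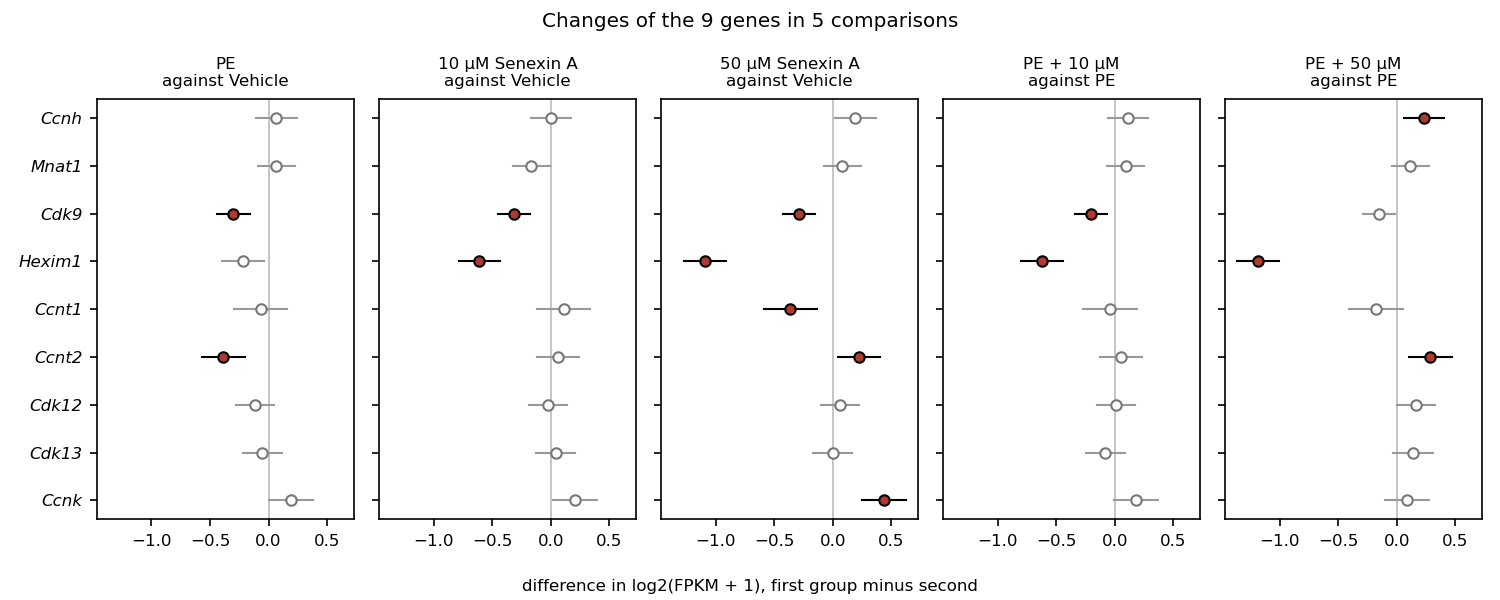
Log2 difference (log2(FPKM + 1)) with its 95% interval for each of the 9 members in the 5 comparisons with Vehicle or PE; filled red points passed the test (adjusted p under 0.05). Hexim1 lies farthest below 0 in the 4 comparisons with Senexin A, at -0.61 and -1.09 alone and -0.62 and -1.19 with PE.

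Whether the response to PE differed with the inhibitor present was tested as an interaction. By limma, 0 of 9 members passed at 10 µM, beside 0.0668% of all genes above and 0.239% below, and 0 of 9 passed at 50 µM, beside 2.24% above and 4.76% below. At an unadjusted p under 0.05, 1 member passed at each dose. At 10 µM this was Mnat1 (0.26, SE 0.11; adjusted p = 0.414) and at 50 µM Ccnk (-0.35, SE 0.13; adjusted p = 0.105). With the replicate block Ccnk passed at 50 µM (adjusted p = 0.0367). The interactions of Hexim1 were -0.02 (95% interval -0.27 to 0.24) and -0.10 (-0.35 to 0.15).

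Among 7 lists of genes that work with these kinases, 53 genes were tested. At 10 µM alone 0 of 53 passed (4 at an unadjusted p under 0.05), where 9.17% of all tested genes rose and 7.01% fell. With 10 µM added to PE 1 rose and 2 fell, beside 9.13% and 7.84% of all tested genes. At 50 µM, 17 rose and 13 fell against Vehicle, where 30.5% of all tested genes rose and 30.2% fell. Against PE 18 rose and 12 fell, beside 29.3% and 27.4% of all tested genes. With PE alone 8 rose and 5 fell, beside 17.9% and 12.7%. The lists were chosen with earlier results of these data known, their counts are a description, and counts near these shares of all genes are not a result about the lists. Among the genes counted as called below, the rows of Ercc2, Eaf1, Aff4, Supt6h, Nelfcd, Polr2b, Polr2j, Ctdsp1, Ctdspl, Rpap2 and Cdk10 each name a locus shared with another gene, so their values are uncertain.

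The core of TFIIH, to which the CDK7 module binds, moved mostly upward at 50 µM. Against Vehicle 6 of 7 genes rose (median 0.49, against -0.01 over all tested genes), beside 30.5% of all tested genes, and 6 rose with each compared library left out. The p62 subunit Gtf2h1 rose from a mean of 27.3 to 41.9 FPKM (0.60; limma's adjusted p = 4.2e-06) and Gtf2h4 from 9.11 to 14.9 FPKM (0.67; adjusted p = 0.000470). Against PE 5 rose and 1 fell (median 0.40, against 0.00 over all tested genes), beside 29.3% and 27.4% of all tested genes. Gtf2h1 rose by 0.68 log2 and Gtf2h4 by 0.78. The gene that fell was the helicase Ercc3 (-0.24; adjusted p = 0.00527), named after its value was seen. At 10 µM 0 of 7 passed, with or without PE (1 without Vehicle replicate 3, and 1 without PE with 10 µM replicate 2). Alone, 2 rose with quantile normalization and 1 with the replicate block, and 2 rose with that block under PE. At this dose 6 of 7 differences were above 0, both alone (median 0.19, against -0.01 over all tested genes) and with PE (median 0.14, against 0.01). This count of directions is a description and was not tested. Of all tested genes, 9.17% rose and 7.01% fell at 10 µM alone, and 9.13% and 7.84% with PE. PE itself raised 1 of 7, Ercc3 (0.24; adjusted p = 0.0113), beside 17.9% of all tested genes that rose and 12.7% that fell.

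Of 6 tested partners of the 7SK complex and P-TEFb, Srsf2, a splicing factor that binds 7SK, rose with PE from 115.6 to 161.6 FPKM (0.48; adjusted p = 0.00243). It fell at 50 µM to 74.1 FPKM alone (-0.64; adjusted p = 6.03e-05) and to 82.1 FPKM with PE (-0.97; adjusted p = 1.03e-06). Larp7, which holds the end of 7SK RNA, fell at 50 µM alone (-0.30; adjusted p = 0.00634). Ddx21, an RNA helicase that frees P-TEFb from 7SK, rose at 50 µM alone (0.25; adjusted p = 0.00250) and with PE (0.34; adjusted p = 0.000215). With quantile normalization 0 of the 6 rose and 3 fell at 50 µM alone, which lost the call of Ddx21 there. As reported, 1 of 6 rose and 2 fell at 50 µM alone, beside 30.5% and 30.2% of all tested genes. With PE and 50 µM, 1 rose and 1 fell, beside 29.3% and 27.4%. With PE alone 1 rose and 0 fell, beside 17.9% and 12.7%.

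At 50 µM, 30.5% of all tested genes rose and 30.2% fell alone, and 29.3% and 27.4% with PE, beside the counts that follow. In the super elongation complex, a carrier of P-TEFb, 1 of 7 genes rose and 3 fell at 50 µM alone, and 1 rose and 2 fell with PE. These falls rested on single libraries: without Vehicle replicate 3, 0 fell at 50 µM alone, without either of replicates 1 and 2 of 50 µM, 1 fell, and with PE 0 fell without PE with 50 µM replicate 1 and 1 without any PE library. Eaf1, whose row shares its locus with Mettl6, was the one that rose (0.37 and 0.55). The falls were of Ell3, from 1.06 to 0.465 FPKM alone (-0.49) and from 0.827 to 0.334 FPKM with PE (-0.45), of Aff1, a scaffold of the complex (-0.32 in both), and at 50 µM alone of Mllt1 (-0.30). The mean of Ell3 was above 1 FPKM in Vehicle only. A gene this low can pass the filter through the group where it is high, so its falls are not a result about the complex. Another scaffold, Aff4, fell with 10 µM added to PE (-0.29; adjusted p = 0.0149). Mllt3 fell with 10 µM added to PE, from 8.16 to 4.01 FPKM (-0.88; adjusted p = 0.00325), and was at 7.98 FPKM with 50 µM added. Among 12 pausing and elongation factors, 2 rose and 3 fell at 50 µM alone, and 3 rose and 3 fell with PE. With quantile normalization 6 fell alone and 5 with PE, and with median-ratio scaling 3 fell alone and 5 with PE. Leaving out single libraries gave 2 to 3 falls alone and 2 to 4 with PE. Nelfe, a subunit of the pausing factor NELF, rose with PE (0.35), with 50 µM alone (0.73) and with 50 µM added to PE (0.59). Tcea1, the elongation factor TFIIS, rose at 50 µM (0.50 alone and 0.41 with PE). Supt6h, a histone chaperone of elongating polymerase, fell (-0.36 and -0.51), as did Paf1, of the elongation complex of that name (-0.34 and -0.32).

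Beside the counts at 50 µM that follow, 30.5% of all tested genes rose and 30.2% fell alone, and 29.3% and 27.4% with PE. Of 9 polymerase subunits, 4 rose and 1 fell at 50 µM alone, and 3 rose and 3 fell with PE. With PE, leaving out single libraries gave 1 to 4 rises and 1 to 3 falls (1 rise without PE with 50 µM replicate 2; 1 fall without PE replicate 1 or PE with 50 µM replicate 1 or 3). The fall at 50 µM alone was of Polr2b (-0.18), whose row shares its locus with Igfbp7, named after its value was seen, and it was lost without Vehicle replicate 1 or 2 or replicate 3 of 50 µM. Polr2k rose from 102.8 to 175.6 FPKM at 50 µM alone (0.76; adjusted p = 0.000267), and Polr2j, whose row shares its locus with Lrwd1, rose by 0.54 log2 alone and by 0.59 with PE. Polr2b fell by 0.37 log2 with PE and 50 µM. With PE alone 4 rose and 0 fell (2 rose without Vehicle replicate 3 or PE replicate 2), beside 17.9% and 12.7% of all tested genes. The largest rise was of Polr2f (0.49, limma's adjusted p = 0.000713). With quantile normalization 2 of the 9 subunits rose with PE alone and 2 fell. Of 5 phosphatases of the polymerase tail, 2 rose and 2 fell in both comparisons at 50 µM; 1 fell without any Vehicle library or replicate 1 or 2 of 50 µM, and with PE without PE replicate 2 or 3 or PE with 50 µM replicate 1 or 2. Ssu72 rose from 89.3 to 133.8 FPKM alone (0.58; adjusted p = 4.05e-05) and by 0.59 log2 with PE. The other calls were on rows that share their loci: Rpap2 rose (0.46 alone and 0.58 with PE), and Ctdspl (-0.69 and -0.85) and Ctdsp1 (-0.22 and -0.21) fell. Among 7 other transcription-linked kinases and cyclins, 1 rose and 2 fell at 50 µM alone, and 3 rose and 0 fell with PE. The cyclins L, Ccnl2 (-0.42; adjusted p = 0.00616) and Ccnl1 (-0.34; adjusted p = 0.0146), fell at 50 µM alone, and Ccnl2 also fell with PE against Vehicle (-0.33; adjusted p = 0.0484). Ccnc, the cyclin of CDK8, rose at 50 µM alone (0.32; adjusted p = 0.00575) and with PE (0.29; adjusted p = 0.0120). Cdk10, whose row shares its locus with Spata2L, rose with PE and 50 µM (0.40; adjusted p = 0.0135), as did Cdk8, a kinase that Senexin A inhibits (0.28; adjusted p = 0.0455). The 3 rises there became 0 once PE replicate 1 was left out, 1 once replicate 2 of PE with 50 µM was, and 2 once PE replicate 2 or replicate 1 or 3 of PE with 50 µM was.

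**Figure D4:**
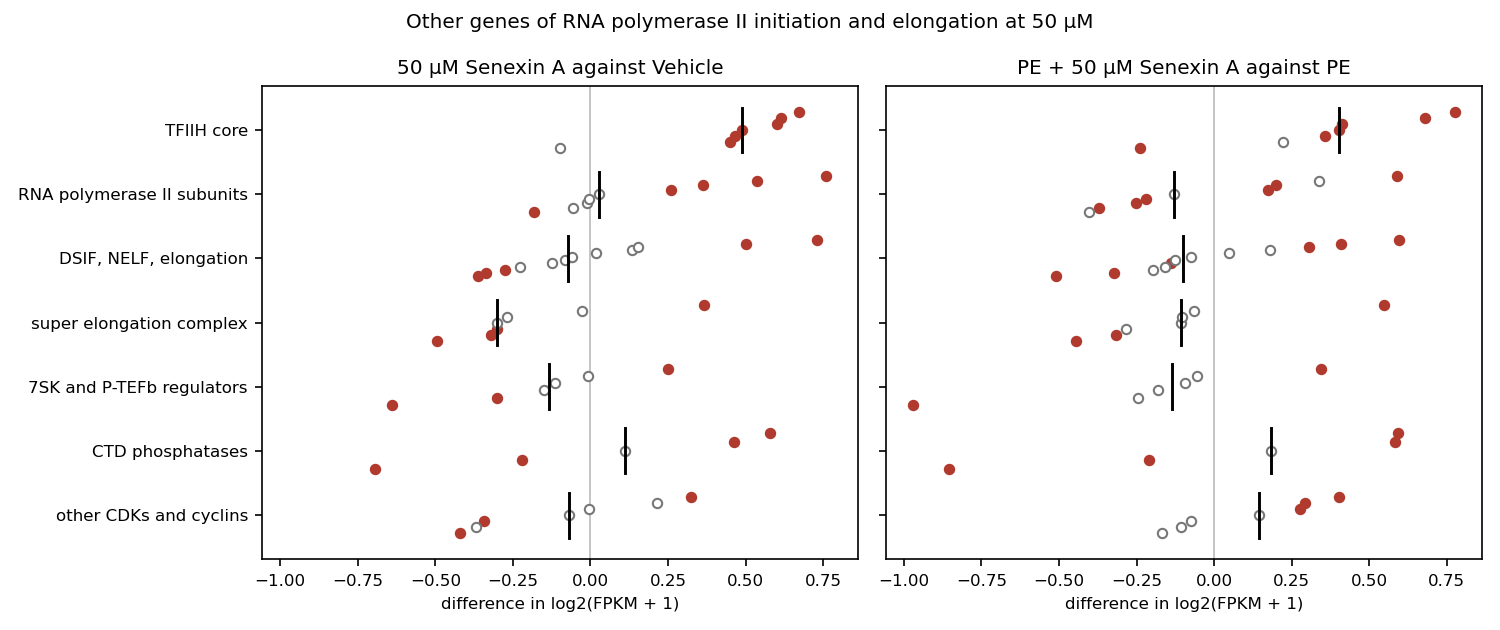
Log2 difference at 50 µM Senexin A, alone against Vehicle and with PE against PE, for each tested gene (point) of the 7 lists, with red points for genes that passed the test and a line at the median of the list; height within a row only separates the points. The median of the TFIIH core is 0.49 alone and 0.40 with PE.

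The genes with the pattern most like a member's were found for the 3 members whose group means spanned at least 0.5 log2. Likeness was the root mean square difference between 18 centred log2(FPKM + 1) values, and is a description across libraries that share their groups. For Hexim1, whose own root mean square was 0.49, these were Eva1b (0.13), Rasgrp2 (0.14) and Ltbp3 (0.15). For Cdk9 (0.17) they were Pttg1ip (0.07), Map4k5 (0.09) and Pip4k2a (0.09), and for Ccnt2 (0.23) Lancl1, Rnf123 and Tpp1 (each 0.10).

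Some markers of fibroblasts fell at 50 µM, the dose at which Hexim1 was lowest. The summed FPKM of all 11 fibroblast markers ran from 1878 to 3161 in Vehicle and from 1007 to 1359 with 50 µM alone. It ran from 1275 to 2017 with PE and from 645 to 1251 with PE and 50 µM. Col1a1 and Col3a1 had the highest means in Vehicle (955 and 930 FPKM), so the sums weigh them most. At 50 µM 4 of 10 tested fell, alone and with PE, beside 30.2% and 27.4% of all tested genes. These were Col1a1, Col3a1, Thy1 and Ddr2. Of the 10 differences, 1 was above 0 alone and 4 with PE. Col1a2 was at the floor of 0.01 FPKM in 15 libraries. With 10 µM alone, where Hexim1 fell, the sum was 1724 to 3283 and 0 of 10 passed the test. With 10 µM added to PE it was 900.2 to 1802, and 1 of 10 fell, Ddr2 (-0.63; adjusted p = 0.0144). Markers of smooth muscle and pericytes summed to 207 to 359 FPKM in Vehicle and 111 to 212 with 50 µM alone, where 2 of 6 fell, and to 299 to 501 with PE and 154 to 212 with PE and 50 µM, where 1 of 6 fell. Cnn1 and Myh11 had the highest means in Vehicle (124 and 87.7 FPKM), so these sums weigh them most. Cnn1 fell at 50 µM alone (-1.65) and with PE (-1.84), and rose with PE alone (1.07). At 50 µM, 1 of the 6 differences was above 0, both alone and with PE. With PE alone 2 of 6 rose and 1 fell, and at 10 µM 1 of 6 rose, alone and with PE. Cardiomyocyte markers (8 genes) summed to 32344 to 46354 FPKM in Vehicle and 77618 to 95150 with PE (against Vehicle, 5 rose and 1 fell). The sum was 58374 to 77174 with PE and 10 µM (against PE, 3 rose and 1 fell). It was 40198 to 51407 with PE and 50 µM (against PE, 2 rose and 3 fell). Without PE the 8 genes summed to 43789 to 57573 FPKM at 10 µM, where 4 of 8 rose against Vehicle. At 50 µM alone they summed to 31138 to 49427 FPKM, where 2 rose and 2 fell against Vehicle. Myl2 had the highest values of the 8, at 21313 to 80214 FPKM, so these sums weigh it most. Endothelial markers summed to 4.60 to 7.49 FPKM in Vehicle and 1.09 to 4.19 with 50 µM alone, where 1 of 3 tested fell, Tek (-1.07). They summed to 5.23 to 7.72 FPKM with PE and 1.69 to 3.26 with PE and 50 µM, where 2 of 3 fell, Pecam1 (-0.89) and Tek (-0.82). The mean of Pecam1 was above 1 FPKM with PE only (1.29), so it may have passed the filter through that group. At 10 µM the endothelial sum was 4.31 to 7.09 FPKM alone and 3.61 to 5.36 with PE, and 0 of 3 passed. Macrophage markers summed to between 5.23 and 38.8 FPKM over all libraries, and 0 of 4 tested passed in these comparisons. Beside these marker counts, 30.5% of all tested genes rose and 30.2% fell at 50 µM alone, and 29.3% and 27.4% at 50 µM with PE. At 10 µM, 9.17% rose and 7.01% fell alone, and 9.13% and 7.84% with PE. With PE alone, 17.9% rose and 12.7% fell. The part of these cell types in the values of the members was not tested.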

How the data were processed

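Polyadenylated RNA of 18 libraries was sequenced, per the labels' protocols. The authors deposited FPKM values, 1 column per library. Bowtie2, Cufflinks and the rn5 build are named per the submitters' processing notes; their versions and the annotation are not given in the sources used here. A floor of 0.01 FPKM holds 26.6% to 28.5% of the rows of each library. Strand assignment is not given in the labels. Absolute depth is unknown. Relative to Vehicle replicate 2 it was 0.835 to 1.11, judged from the most frequent step (67 to 193 rows) among 567 to 709 rows below 0.2 FPKM.

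Groups came from the labels. Genes entered with 1 FPKM or more in at least 3 libraries. Their log2(FPKM + 1) values were tested with limma 3.58.1 in R 4.3.3 (variance trend; 6 group means in 1 fit; 12 residual degrees of freedom; Benjamini-Hochberg adjustment within each comparison). This scale understates changes of low genes. The test was checked on simulated data. p-values measure the spread between these libraries, which may be technical.

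Libraries with the same replicate number deviated together from their group means (correlation 0.213 to 0.587 over 45 pairs; -0.462 to 0.0949 over the 90 pairs whose numbers differ), so the numbers pair the libraries. The labels do not say where this pairing comes from, and a replicate block was an alternative. Libraries of a group correlated by 0.986 to 0.992 across genes and shared at most 2 equal values above the floor.

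The members and lists were chosen with earlier results of these data known. Every member present was named. List genes were taken from the at most 4 called per comparison with the largest change; not all of these are described. Marker genes, and list genes marked so, were named after their values were seen. Cdk7, Ell2, Polr2a and Ctdsp2 were not analysed here. The alternatives were a pseudocount of 0.1, a filter at 5 FPKM or none, median-ratio scaling, quantile normalization, a fit of the compared groups alone, the replicate block and leaving out each library. List counts under these were added after seeing the data. Promoter stretches came from RefSeq (GRCr8). Tables and plots used Python 3.11.15 with pandas 2.3.3, numpy 2.4.6 and matplotlib 3.10.9.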

Additional observations from a re-analysis of the deposited data

How the results depend on the processing

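The number of members called was within 1.5 times the reported number in most settings. Between the doses with PE, 3 members were called as reported, 1 with median-ratio scaling and 1 with only the compared groups fitted. For 10 µM added to PE, 2 were called as reported and 1 with only the compared groups fitted. For the interaction at 50 µM, 0 were called as reported and 1 with the replicate block. That block also brought Hexim1 in PE against Vehicle and Ccnh at 50 µM alone past the threshold, and changed no other call of a member. With single libraries left out, the number called was 1 in all 6 omissions for 10 µM added to PE, 1 to 4 between the doses with PE (1 without PE with 10 µM replicate 2 or PE with 50 µM replicate 1 or 3) and 2 to 4 between the doses without PE (2 without 50 µM replicate 2).

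Of 567 values of single members under the other settings, 544 kept their side of the threshold, 13 lost and 10 gained a call. Of 594 with a library left out, 561 kept their side, 27 lost and 6 gained a call. In both sets 0 reversed a called direction. Values that passed in neither fit could change sign and still count as kept. The cause of these changes was not tested. With 3 libraries a group, the median SE of 0.118 log2 (0.167 for interactions) limits what could be called.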
